A study of Homo sapiens and Mus musculus with 56 samples.

Results

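The question was how the response of KMT2A-AFF1 leukaemia lines to combined inhibition of DOT1L and menin differed from that of a B-precursor line without a KMT2A fusion. For each gene, the log2 change on combination arrays relative to DMSO arrays was averaged over RS4;11 and SEM, and the same change in REH was subtracted. The comparison used 15 of the 56 arrays of the series, chosen by their titles. They were 3 combination and 2 DMSO arrays of RS4;11, 2 combination and 2 DMSO arrays of SEM, and 3 combination and 3 DMSO arrays of REH. Cells of the combination groups received EPZ004777, which blocks the histone methyltransferase DOT1L, together with MI-2-2, which blocks the binding of menin to KMT2A. The labels state 3 µM EPZ004777 and 10 µM MI-2-2 for the single compounds, and these doses were taken to hold for the combination. All 6 groups were harvested after 6 days, and the labels call their replicates biological. RS4;11 and SEM are human lines of B-precursor acute lymphoblastic leukaemia that carry the KMT2A-AFF1 fusion. REH comes from the same kind of leukaemia but carries ETV6-RUNX1 and no KMT2A fusion. SEM was cultured in IMDM medium, while RS4;11 and REH were cultured in RPMI medium, so that medium and line cannot be told apart for SEM. Each genotype is represented by 1 or 2 lines, so that a difference between lines and a difference due to the fusion cannot be told apart.

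KMT2A fusion proteins recruit DOT1L, which methylates histone H3 within transcribed genes, and they bind chromatin together with menin. In KMT2A-rearranged leukaemia they keep a progenitor programme switched on that includes homeobox genes and their cofactors, such as MEIS1. Inhibitors of DOT1L and of the menin interaction lower part of that programme in such cells and can be followed by the appearance of differentiation markers.

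B-precursor genes were bright in all 3 lines: CD79A, a signalling chain of the B cell receptor, had group means between 10.98 and 12.55 on the log2 signal scale. MEIS1 and CSPG4, markers of KMT2A-rearranged leukaemia, were bright in RS4;11 and SEM, and EPOR, a gene high in ETV6-RUNX1 leukaemia, was highest in REH. HOXA10 had no probe set of its own among those used. The REH DMSO arrays stood apart from the others. Their residual SD was 0.186 to 0.258, against 0.09 to 0.133 in the other 5 groups, and their correlations within the group were 0.983 to 0.989, against 0.995 or more elsewhere. REH DMSO replicate 1 carried signal of genes that are bright in RS4;11. Over 56 genes with a mean above 10 in RS4;11 DMSO and a median below 5 over the REH arrays, it lay a median of 1.95 above REH DMSO replicate 2, REH combination replicate 2 lay 0.41 above it, and the other 9 REH arrays lay between -0.04 and 0.17. Over 14 genes bright in SEM and dim in both other lines, the same differences lay between -0.14 and 0.15. REH DMSO replicate 3 had the largest 3' minus 5' differences of the 15 arrays, 3.65 for actin and 1.08 for GAPDH. Counts below are therefore also given without REH DMSO replicates 1 and 3, and so are single differences that lost their call or moved by over 1.5 times. That leaves REH DMSO with 1 array whose spread is assumed to equal that of the other groups.

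The combination effect differed between the KMT2A-AFF1 lines and REH for 3099 of 14943 genes tested (20.7% of them) at an adjusted p under 0.05 in limma. The difference was positive for 1499 genes (10%) and negative for 1600 genes (10.7%). Over all genes tested the median difference was -0.02 and the median standard error 0.15. Without the REH DMSO arrays that stood apart, 957 genes (6.42%) were called higher and 1134 genes (7.61%) lower. The effect was called against REH for 2396 genes (16%) in RS4;11 alone and for 2872 genes (19.2%) in SEM alone. The first count was 1561 without RS4;11 DMSO replicate 2 and 1526 without RS4;11 DMSO replicate 3.

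A positive difference arises where a gene went up in RS4;11 and SEM or down in REH, and both kinds occurred. In the single lines the combination changed 2518 genes in RS4;11 (16.9%), 3911 in SEM (26.2%) and 2453 in REH (16.4%). Of the 1499 genes with a positive difference, 395 (26.4%) were called up in both RS4;11 and SEM and not in REH, 361 (24.1%) were up in SEM without RS4;11, 212 (14.1%) were up in RS4;11 without SEM, and 305 (20.3%) were called down in REH with no call in RS4;11 or SEM. Of the 1600 genes with a negative difference, 374 (23.4%) fell in both KMT2A-AFF1 lines and not in REH, and 351 (21.9%) rose in REH with no call in the other lines. Leaving out REH arrays keeps the RS4;11 and SEM arrays as they were, but it changes the spread estimated over all groups. Calls in RS4;11 and in SEM thus also rose in number without REH DMSO replicates 1 and 3. Without REH DMSO replicates 1 and 3, the genes that rested on REH alone numbered 53 (5.54%) and 134 (11.8%), and the genes called in both KMT2A-AFF1 lines and not in REH numbered 453 (47.3%) and 443 (39.1%). The REH count itself was 820 (5.5%) without both arrays, 1464 without REH combination replicate 2 and 3716 without REH DMSO replicate 2. The RS4;11 count was 1651 without RS4;11 DMSO replicate 2 and 1415 without RS4;11 DMSO replicate 3.

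**Figure D1:**
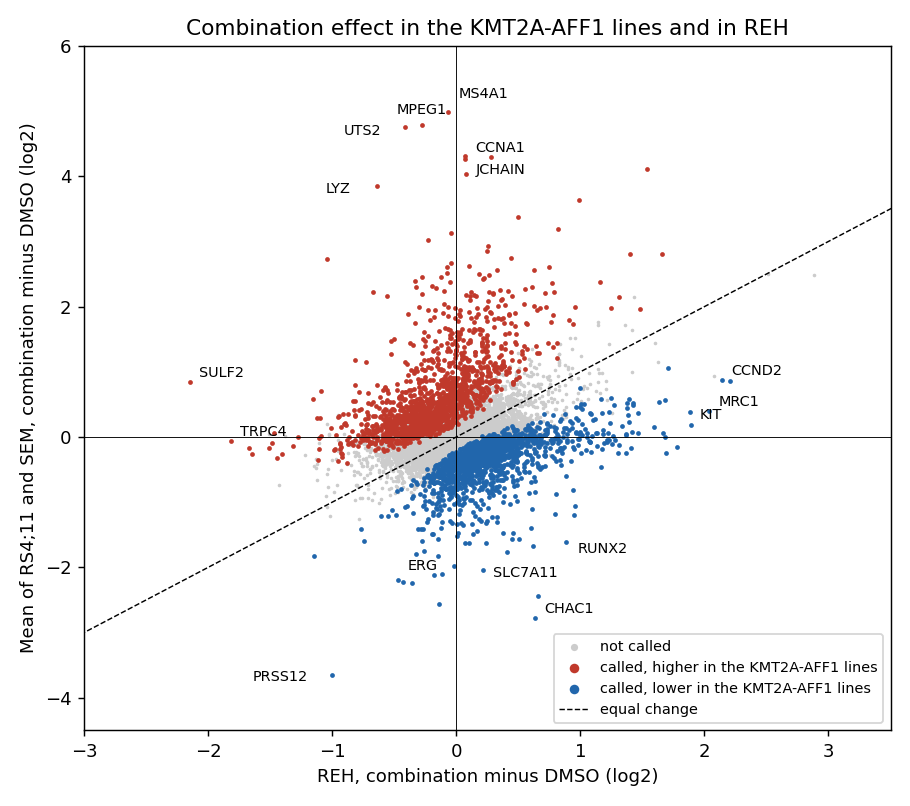
Combination minus DMSO log2 change per gene, with the mean of RS4;11 and SEM on one axis and REH on the other, for 14943 genes; coloured points are the 1499 genes called higher and the 1600 genes called lower in the KMT2A-AFF1 lines. MS4A1, MPEG1 and UTS2 lie far from zero for the KMT2A-AFF1 lines and near zero for REH, while SULF2 and KIT are displaced along the REH axis.

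With all arrays, the largest negative difference among the genes named by rule was that of CHAC1. This enzyme degrades glutathione, and its gene is a target of the transcription factor ATF4. Without the REH DMSO arrays that stood apart, the difference of PRSS12, given below, was larger in size. CHAC1 signals were 6.18, 5.94 and 6.64 on RS4;11 combination arrays, against 8.37 and 8.27 on RS4;11 DMSO arrays, and 5.11 and 5.54 on SEM combination arrays, against 8.78 and 8.87 on SEM DMSO arrays. In REH they were 9.36, 9.62 and 9.75 on combination arrays, against 8.42, 9.01 and 9.41 on DMSO arrays. The groups were apart in both KMT2A-AFF1 lines and overlapped in REH. Separation in both KMT2A-AFF1 lines was a condition for naming the largest differences, here and for such genes below. The difference between lines was -3.41 ± 0.29 (standard error, as after every difference below), with an adjusted p of 4.02e-09 in limma, and it was -3.35 without the REH DMSO arrays that stood apart.

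ATF4 is the effector of the integrated stress response, in which cells short of amino acids or under other stress raise genes for amino acid synthesis and transport. Of 25 ATF4 targets tested, 19 had a negative difference and none a positive one, against 20.7% of all genes called in either direction, and the median was -0.66. In RS4;11 and in SEM 22 of the 25 fell, with median changes of -0.74 and -0.93, whereas in REH 4 fell and none rose, with a median of -0.03. Among all genes tested, 8.17% fell in RS4;11, 13.1% in SEM and 8.13% in REH, or 1.87% in REH without the REH DMSO arrays that stood apart. Without the REH DMSO arrays that stood apart the counts were 20 with a negative difference and 2 that fell in REH. SLC7A11, the cystine transporter, had signals of 9.38, 9.32 and 9.30 on RS4;11 combination arrays, against 10.64 and 10.51 on DMSO arrays. In SEM it had 7.66 and 7.44 on combination arrays, against 10.20 and 10.59 on DMSO arrays, and in REH 10.47, 10.36 and 10.72 on combination arrays, against 10.27, 10.32 and 10.33 on DMSO arrays. The combination arrays thus lay below the DMSO arrays in both KMT2A-AFF1 lines and above them in REH, and the difference was -2.25 ± 0.14 (adjusted p = 1.74e-11).

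ATF4 itself differed by -0.37 ± 0.06. Its target transcription factors ATF5†, ATF3† and DDIT3, the last known as CHOP, differed by -1.94 ± 0.12, -1.35 ± 0.25 and -0.66 ± 0.15. The mark † stands for probe sets whose type allows binding to transcripts of further genes, which applies to 31.5% of the genes tested. SESN2†, an inhibitor of mTORC1, differed by -1.99 ± 0.26, STC2, a secreted glycoprotein, by -1.89 ± 0.24, and PCK2, the mitochondrial PEP carboxykinase, by -1.08 ± 0.16. ASNS†, asparagine synthetase, differed by -1.14 ± 0.17, and here the lines parted: the change was -0.02 in RS4;11, -1.61 in SEM and 0.32 in REH. TRIB3, a pseudokinase that feeds back on ATF4, fell in all 3 lines, by 1.94 in RS4;11, 1.72 in SEM and 1.15 in REH on the log2 scale, and its difference of -0.68 ± 0.20 was still called. The 6 targets with no call were NUPR1†, PPP1R15A, VLDLR†, SLC7A5†, SLC3A2† and SLC1A4†.

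Enzymes that lie downstream of ATF4 in amino acid metabolism moved alike in part. Of all genes, 10% had a positive and 10.7% a negative difference with all arrays. Of 17 cytosolic aminoacyl-tRNA synthetases, which charge tRNAs with amino acids, 9 had a negative difference and none a positive one (median -0.39), and 10 were called lower without the REH DMSO arrays that stood apart. CARS1 differed by -1.11, GARS1† by -0.89, SARS1 by -0.86 and YARS1† by -0.74 (-0.44 with the mean of all probe sets). Of 10 serine and one-carbon enzymes, 5 had a negative difference, or 6 without those arrays, among them PSAT1† at -1.47 ± 0.15, PHGDH at -1.37 ± 0.16 and MTHFD2 at -1.03. In REH 4 of these 10 rose and none fell, where 8.28% of all genes rose.

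Promoters of ATF4 targets are shown because most of these members moved together and the element that ATF4 binds with C/EBP partners has a known core. RefSeq promoters of GRCh38.p14, from 250 bases before to 50 bases after a transcript start, were searched on both strands for TGATGNAA. They were found for 22 of the 26 listed genes, with several promoters for some. The core occurred in 8 of 37 promoters of ATF4 targets (21.6%), in 7 of 21 of aminoacyl-tRNA synthetase genes (33.3%) and in 3 of 11 of serine and one-carbon enzymes (27.3%). It occurred in 1270 of 35116 promoters overall (3.62%) and in 384 of 17181 promoters of genes tested (2.24%). Among ATF4 targets called lower it occurred in 6 of 29 promoters (20.7%), much as in the whole list. These genes were listed as known ATF4 targets, so their share above the background is not a result of these data. A match is a run of letters and not a shown binding site. The core was absent from the promoters searched of SESN2, ATF5, STC2, PCK2 and CEBPB, which were also called lower. ASNS, ATF3 and CEBPG each have a further promoter without the core, and only promoters that hold it are printed. The following promoters read 5′ to 3′ on the strand of the gene, with the core in capitals. CHAC1 (chr15:40953221-40953520, plus strand) holds it on the opposite strand as TTGCATCA, starting 209 bases before the transcript start. ASNS (chr7:97872359-97872658, minus strand), ATF3 (chr1:212565157-212565456, plus strand) and CEBPG (chr19:33373863-33374162, plus strand) hold it on their own strand.
CHAC1: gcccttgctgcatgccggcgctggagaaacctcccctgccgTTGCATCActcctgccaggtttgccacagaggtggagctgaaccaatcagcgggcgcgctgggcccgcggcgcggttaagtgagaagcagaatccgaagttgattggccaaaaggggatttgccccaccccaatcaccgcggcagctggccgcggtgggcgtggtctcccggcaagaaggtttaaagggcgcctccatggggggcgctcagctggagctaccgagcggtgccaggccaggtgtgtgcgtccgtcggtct
ASNS: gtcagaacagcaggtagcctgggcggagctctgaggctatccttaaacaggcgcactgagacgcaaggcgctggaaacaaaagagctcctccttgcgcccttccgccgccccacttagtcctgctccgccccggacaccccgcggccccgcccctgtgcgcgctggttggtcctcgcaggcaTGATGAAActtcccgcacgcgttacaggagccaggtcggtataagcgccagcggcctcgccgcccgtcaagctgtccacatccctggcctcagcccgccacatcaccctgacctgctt
ATF3: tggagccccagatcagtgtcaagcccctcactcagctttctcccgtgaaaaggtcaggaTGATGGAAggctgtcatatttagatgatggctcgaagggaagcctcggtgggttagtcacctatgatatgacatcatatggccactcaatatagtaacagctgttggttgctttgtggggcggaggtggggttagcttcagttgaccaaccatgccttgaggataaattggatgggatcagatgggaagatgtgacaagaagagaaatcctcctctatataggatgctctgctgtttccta
CEBPG: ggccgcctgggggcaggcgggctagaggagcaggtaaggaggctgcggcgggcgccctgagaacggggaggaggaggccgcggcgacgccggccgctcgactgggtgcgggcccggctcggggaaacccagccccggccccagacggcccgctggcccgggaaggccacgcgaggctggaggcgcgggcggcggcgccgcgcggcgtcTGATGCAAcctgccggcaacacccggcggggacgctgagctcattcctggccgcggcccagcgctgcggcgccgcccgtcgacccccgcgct

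**Figure D2:**
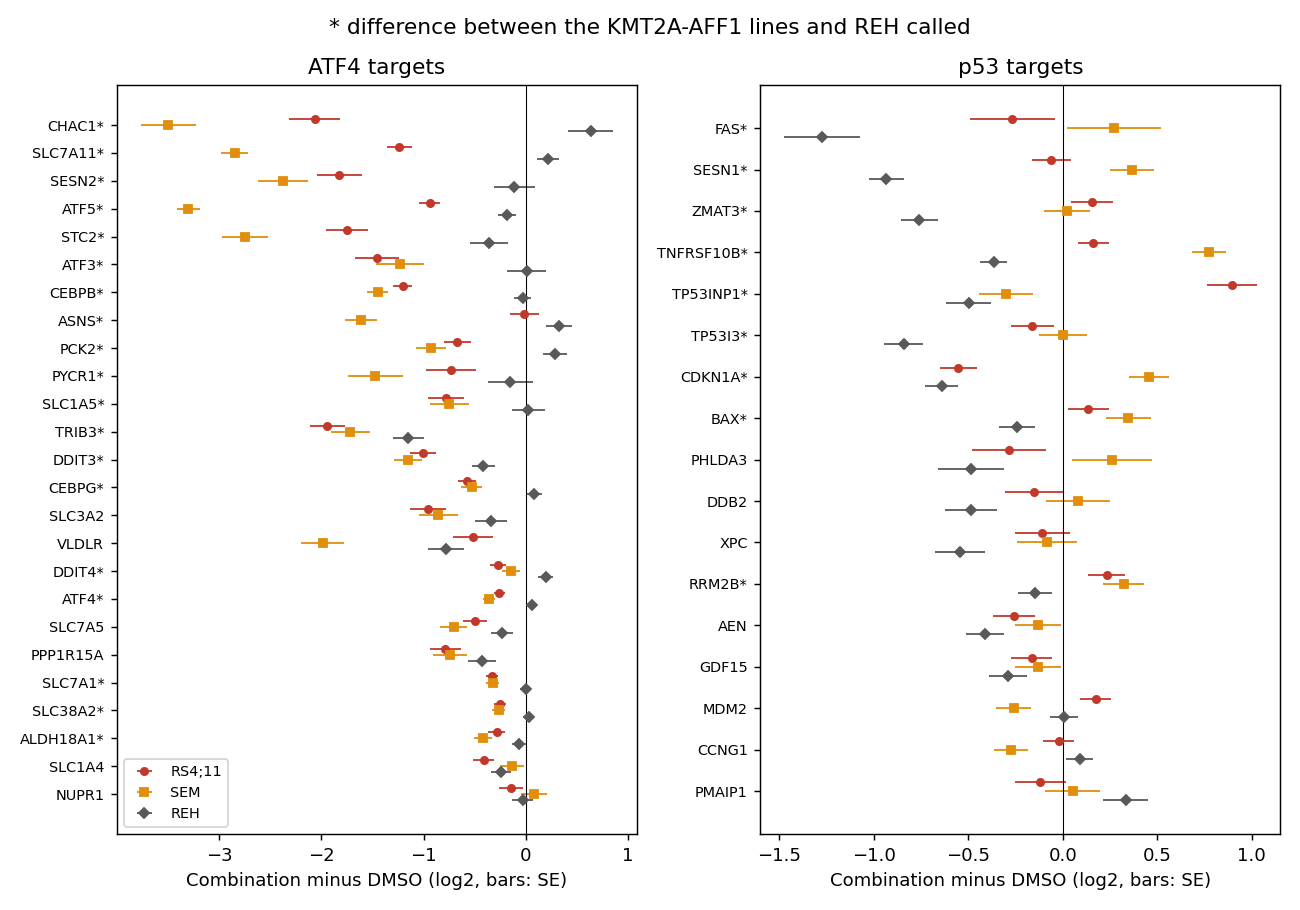
Combination minus DMSO log2 change in RS4;11, SEM and REH for ATF4 targets and p53 targets, with bars of 1 standard error from the limma fit and a star where the difference between the KMT2A-AFF1 lines and REH was called. Most ATF4 targets lie below zero in RS4;11 and SEM and nearer zero in REH, with TRIB3 below zero in all 3 lines, whereas 11 of 17 p53 targets fell in REH.

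Known targets of KMT2A fusion proteins moved both ways. Of all genes, 10% had a positive and 10.7% a negative difference. Of 20 tested, of 25 listed, 9 had a negative and 3 a positive difference (median -0.22), and 7 and 3 were called without the REH DMSO arrays that stood apart. The lines differed: SEM minus REH was negative for 13 and positive for 2 (median -0.51), and RS4;11 minus REH for 5 and 4 (median 0.01). Of all genes, 19.2% were called for SEM minus REH and 16% for RS4;11 minus REH, in either direction. The effect in RS4;11 minus that in SEM was positive for 9 and negative for 2, where 6.57% and 6.3% of all genes were. In SEM 15 fell, where 13.1% of all genes fell, and in RS4;11 8 fell, where 8.17% did. The 5 HOXA genes of the list had no probe set of their own and were not analysed here. RUNX2, a transcription factor of the Runt family, had signals of 10.18, 10.24 and 10.35 on RS4;11 combination arrays, against 11.75 and 11.68 on DMSO arrays. In SEM it had 10.78 and 10.61 on combination arrays, against 12.44 and 12.48 on DMSO arrays, and in REH 6.77, 6.90 and 7.03 on combination arrays, against 7.08, 5.64 and 5.31 on DMSO arrays. The groups were apart in both KMT2A-AFF1 lines, and in REH only DMSO replicate 1, the array with RS4;11-type signal, exceeded the combination arrays. The difference was -2.50 ± 0.31, -2.87 without the REH DMSO arrays that stood apart and -1.46 with the mean of all probe sets.

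PROM1†, the surface antigen CD133, had signals of 12.28, 12.22 and 12.16 on RS4;11 combination arrays, against 13.21 and 13.27 on DMSO arrays, and 11.05 and 11.08 on SEM combination arrays, against 13.27 and 13.32 on DMSO arrays. In REH it had 10.90, 10.99 and 10.92 on combination arrays, against 11.04, 10.56 and 10.50 on DMSO arrays, so that only the KMT2A-AFF1 groups were apart. The difference was -1.87 ± 0.12. HMGA2†, a chromatin protein of fetal cells, differed by -1.93 ± 0.12 (-0.79 with the mean of all probe sets), the demethylase family member JMJD1C by -0.85 ± 0.08, and the transcription factor MEF2C† by -0.49. PBX3, a HOX cofactor, differed by -0.52 ± 0.10 through SEM, with changes of -0.15 in RS4;11, -1.22 in SEM and -0.17 in REH. The list's positive members were CCNA1, EYA1† and SENP6†. CCNA1, cyclin A1, changed by 3.02 in RS4;11, 5.61 in SEM and 0.07 in REH, where it was dim on all arrays (below percentile 40 of the array).

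MEIS1 was not called between the KMT2A-AFF1 lines and REH. Its signals were 12.18, 12.18 and 12.21 on RS4;11 combination arrays, against 11.89 and 11.89 on DMSO arrays, and 11.93 and 11.93 on SEM combination arrays, against 11.58 and 11.60 on DMSO arrays. In REH they were 3.33, 4.48 and 3.76 on combination arrays, against 7.08, 3.25 and 3.26 on DMSO arrays, with the single high value on REH DMSO replicate 1. The difference was 1.00 ± 0.70 (adjusted p = 0.348 in limma), and -0.28 (adjusted p = 0.54) without the REH DMSO arrays that stood apart. DOT1L and MEN1, which encode the targets of the compounds, differed by -0.08 ± 0.23 and 0.23 ± 0.23, both uncalled. Of all genes, 20.7% were called in either direction with all arrays. Of 22 genes of the DOT1L and menin complexes, only PSIP1, the chromatin tether LEDGF, was called, at -0.30, and it was uncalled at -0.28 without the REH DMSO arrays that stood apart.

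Outside that list, ERG†, an ETS factor of haematopoietic stem cells, had signals of 9.99, 9.86 and 10.16 on RS4;11 combination arrays, against 11.25 and 11.17 on DMSO arrays. In SEM it had 8.23 and 8.17 on combination arrays, against 10.98 and 10.96 on DMSO arrays, and in REH 12.13, 12.09 and 12.21 on combination arrays, against 12.14, 12.08 and 12.24 on DMSO arrays. The KMT2A-AFF1 lines moved away from REH, whose groups coincided, with a difference of -1.97 ± 0.09 (adjusted p = 1.28e-13). PRSS12, a serine protease, changed by -4.22 in RS4;11 and -3.10 in SEM. In REH it read 2.88, 2.95 and 2.89 on combination arrays, against 5.91, 2.92 and 2.90 on DMSO arrays, so that DMSO replicate 1 alone lowered the change in REH. The difference was -2.66 ± 0.54 with that array and -3.65 ± 0.09 without the REH DMSO arrays that stood apart. Of all genes, 10% had a positive and 10.7% a negative difference with all arrays. Of 17 stem and progenitor genes, 5 had a positive and 4 a negative difference, and 3 and 4 were called without the REH DMSO arrays that stood apart.

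Genes of later B cells were among the largest positive differences. MS4A1, the surface antigen CD20, had signals of 9.03, 8.73 and 9.10 on RS4;11 combination arrays, against 3.92 and 4.47 on DMSO arrays. In SEM it had 11.37 and 11.53 on combination arrays, against 6.36 and 6.10 on DMSO arrays, and in REH 4.16, 4.91 and 4.82 on combination arrays, against 4.39, 5.09 and 4.61 on DMSO arrays. The groups were more than 4 log2 units apart in both KMT2A-AFF1 lines and overlapped in REH, and the difference was 5.05 ± 0.26 (adjusted p = 5e-13). JCHAIN, the joining chain of secreted antibodies, had 9.36, 9.73 and 9.22 on RS4;11 combination arrays, against 4.20 and 4.19 on DMSO arrays, and 7.82 and 7.81 on SEM combination arrays, against 4.35 and 4.73 on DMSO arrays. In REH it had 3.34, 3.44 and 3.40 on combination arrays, against 3.18, 3.49 and 3.28 on DMSO arrays, and it was dim in every group other than the combination groups of RS4;11 and SEM. Its difference was 4.19 ± 0.16.

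Of 21 genes of the pre-B cell receptor and the B cell surface, 10 had a positive and 3 a negative difference (median 0.41), and 8 and 2 were called without the REH DMSO arrays that stood apart. MME†, the antigen CD10, differed by 2.15 ± 0.12, BLNK†, the adaptor of the pre-B cell receptor, by 1.97 ± 0.13, CD38 by 1.14 and FCRLA by 1.16, while CD9 differed by -1.28 (-0.82 with the mean of all probe sets). Of all genes, 10% had a positive and 10.7% a negative difference with all arrays. In BLNK the change was 0.96 in RS4;11, 3.49 in SEM and 0.26 in REH. MME and BLNK stayed brightest in REH. Combination means in RS4;11, SEM and REH were 8.1, 6.6 and 12.64 for MME and 10.84, 9.9 and 12.68 for BLNK. CD9 had means of 12.55 against 12.76 in RS4;11, 10.96 against 11.61 in SEM and 10.6 against 9.75 in REH (combination against DMSO). The higher combination mean in REH, where the DMSO SD was 0.68, is part of the CD9 difference. Transcription factors of the B lineage were divided, with 6 positive and 5 negative differences of 20, or 6 and 4 without the REH DMSO arrays that stood apart. IKZF3, Aiolos, differed by 2.60 ± 0.23 (1.56 with the mean of all probe sets), SPIB by 1.88 and POU2F2 by 1.2 (0.39 with the mean of all probe sets), and IRF4 by -1.09 ± 0.14 (-0.50 with the mean of all probe sets). POU2F2 rose in SEM alone, with means of 7.33 against 5.42 there and 7.38 against 7.50 in RS4;11 (combination against DMSO). SPIB had means of 8.65 against 6.66 in SEM, 7.87 against 7.57 in RS4;11 and 6.17 against 6.9 in REH. Of 8 plasma cell genes, 4 had a positive difference and 1 a negative one (3 and 1 without those arrays). TNFRSF17, the BCMA receptor, differed by 2.30 ± 0.18, the transcription factor PRDM1 by 1.30 (0.54 with the mean of all probe sets), and SDC1, the plasma cell marker CD138, by -0.71, a call that ended in 8 alternatives.

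CD86, a costimulatory ligand of activated B cells and dendritic cells, had signals of 8.83, 8.85 and 8.96 on RS4;11 combination arrays, against 5.17 and 4.92 on DMSO arrays, and 10.79 and 10.70 on SEM combination arrays, against 5.93 and 6.03 on DMSO arrays. In REH it had 5.0, 4.96 and 4.88 on combination arrays, against 4.51, 4.70 and 4.78 on DMSO arrays. Its groups were apart in all 3 lines, but the change in REH was 0.28 and uncalled. The difference was 4.02 ± 0.16. Of all genes, 10% were called higher and 10.7% lower with all arrays. Of 16 genes of MHC class II presentation, 6 had a positive and 1, HLA-DOA, a negative difference, with the same counts without the REH DMSO arrays that stood apart. HLA-DMB, which loads peptides, differed by 1.53 ± 0.14 and HLA-DMA† by 0.88 ± 0.13, while CIITA, the master regulator of the class, was uncalled at -0.21. Of 12 MHC class I processing genes, 3 were called higher and 1 lower, against 0 and 3 without the REH DMSO arrays that stood apart.

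**Figure D3:**
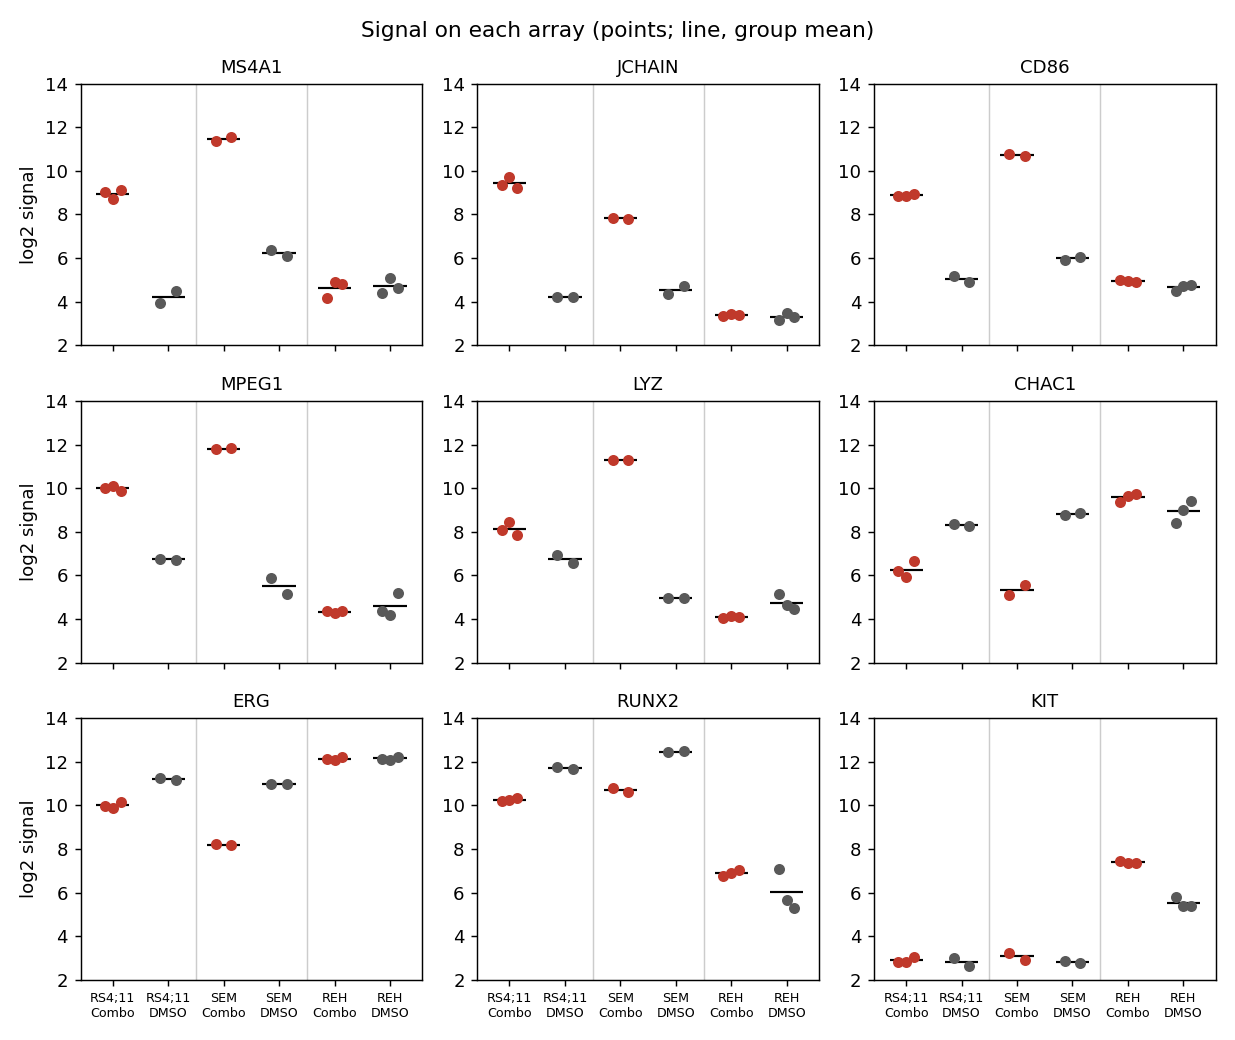
Log2 signal on each combination and DMSO array of RS4;11, SEM and REH for MS4A1, JCHAIN, CD86, MPEG1, LYZ, CHAC1, ERG, RUNX2 and KIT, 1 point per array. In RS4;11 and SEM the combination arrays lie above DMSO for the first 5 genes and below it for CHAC1, ERG and RUNX2, while KIT changes in REH.

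Genes of phagocytes were also among the largest positive differences. MPEG1, the pore-forming protein perforin-2 of phagocytes, had signals of 9.99, 10.11 and 9.89 on RS4;11 combination arrays, against 6.75 and 6.71 on DMSO arrays. In SEM it had 11.79 and 11.83 on combination arrays, against 5.86 and 5.16 on DMSO arrays, and in REH 4.34, 4.26 and 4.36 on combination arrays, against 4.38, 4.20 and 5.19 on DMSO arrays. The groups were apart in RS4;11 and SEM only, and the difference was 5.06 ± 0.26. LYZ†, lysozyme, had 8.09, 8.43 and 7.87 on RS4;11 combination arrays, against 6.93 and 6.57 on DMSO arrays, and 11.30 and 11.31 on SEM combination arrays, against 4.97 and 4.97 on DMSO arrays. In REH it had 4.06, 4.12 and 4.11 on combination arrays, against 5.12, 4.63 and 4.46 on DMSO arrays, so that it rose in both KMT2A-AFF1 lines and read lower in REH. All REH readings were low, and the highest, 5.12, was on DMSO replicate 1, which carried RS4;11-type signal.

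Of 24 myeloid and phagocyte genes tested, 9 had a positive and 1, CEBPB, which is also an ATF4 target, a negative difference. Of all genes, 10% had a positive and 10.7% a negative one. In SEM 16 rose and 4 fell (median 0.87), in RS4;11 7 rose and 2 fell (median -0.06), and in REH none rose and 2 fell. Of all genes, 13.1% rose in SEM, 8.68% in RS4;11 and 8.28% in REH. The effect in RS4;11 minus that in SEM was negative for 13 of the 24 and positive for none, where 6.3% of all genes were called negative and 6.57% positive. ITGAM, the integrin CD11b, differed by 2.21 ± 0.17, TLR4 by 1.74, the factor CEBPA by 1.44, FCGR2B†, the inhibitory Fc receptor, by 3.97 ± 0.22 and CSF1R, the M-CSF receptor, which rose in SEM and was uncalled in RS4;11, by 1.40. The summed linear signal of the myeloid marker list was 279 to 312 on RS4;11 combination arrays, against 196 to 198 on DMSO arrays, 574 and 668 on SEM combination arrays, against 92 and 114 on DMSO arrays, and 1779 to 2186 on REH combination arrays, against 1547 to 2372 on DMSO arrays. MPO gave most of the REH sum, and CD14 and ELANE did not pass the filter in any line. In such bulk samples, more cells of a type and more RNA per cell cannot be told apart. The stromal marker sum also moved, with 174 to 208 on RS4;11 combination arrays, against 91 to 92 on DMSO arrays, 554 to 569 on SEM combination arrays, against 53 to 73 on DMSO arrays, and 377 to 404 on REH combination arrays, against 209 to 281 on DMSO arrays. In RS4;11 this was COL1A1 alone, with a mean of 7.21 in the combination group, against 4.78 in DMSO, while COL1A2 and COL3A1 averaged 4.31 and 4.35, against 5.16 and 4.76. The part of the stromal markers in these results was not tested. COL1A1†, a collagen chain of that list, differed by 2.38 ± 0.22 (0.86 with the mean of all probe sets). The T cell sum lay between 20 and 30 on every array and was CD3D alone, since CD3E, CD3G and CD2 did not pass the filter. CD3D was dim in every group but RS4;11 DMSO.

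Genes outside the lists were also among the largest. UTS2†, the peptide urotensin II, changed by 5.71 in RS4;11, 3.79 in SEM and -0.41 in REH, and it was dim in every group but the combination groups of RS4;11 and SEM. Its difference was 5.17 ± 0.24, and 2.62 with the mean of all probe sets. GPR183, a receptor that guides B cells in lymphoid follicles, differed by 3.17 ± 0.23, with a change of 5.21 in SEM and of 1.05 in RS4;11, and it was dim in every group but the SEM combination group. SHISA2 differed by 3.26 ± 0.23, KCNJ2, an inward rectifier potassium channel, by 2.89 ± 0.24, and CD28, a costimulatory receptor best known from T cells, by 2.87 ± 0.30 (1.09 with the mean of all probe sets). CCR2 rose in SEM alone, with a mean of 6.76 on combination arrays, against 3.32 on DMSO arrays. In RS4;11 its means were 3.26 and 3.47 in that order. Of all genes, 10% had a positive difference with all arrays. Of 11 chemokines and receptors, 6 had a positive difference and none a negative one, or 5 without the REH DMSO arrays that stood apart, among them CCR2 at 1.59, CCR7 at 1.37 and CXCL8† at 1.36 (0.69 with the mean of all probe sets).

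Among the largest negative differences, SOCS2, a suppressor of cytokine signalling, differed by -2.29 ± 0.22 through RS4;11, with changes of -2.81 in RS4;11, -0.56 in SEM, where it was dim, and 0.61 in REH. TPH2, which makes a precursor of serotonin in neurons, differed by -2.42 ± 0.18, CCN2, the matrix protein CTGF, by -2.07 ± 0.20, and CTSH†, the protease cathepsin H, by -2.01 ± 0.15. CCN2 changed by -1.62 in RS4;11, -1.50 in SEM and 0.50 in REH, and CTSH by -1.71, -1.42 and 0.45 in the same order of lines. The axon guidance factor SEMA3A differed by -2.15 and the secreted glycoprotein OLFM4† by -2.01. SEMA3A had means of 8.39 against 10.68 in SEM, 7.22 against 7.34 in RS4;11 and 6.17 against 5.22 in REH (combination against DMSO). OLFM4 had 3.79 against 4.45, 4.21 against 5.66 and 5.18 against 4.22 in the same order. The rise in REH is part of both differences.

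In other groups, with all arrays, more genes fell in REH than in either KMT2A-AFF1 line. Of 17 p53 targets, which include the cell cycle inhibitor CDKN1A and the death receptor FAS, 9 had a positive difference and none a negative one (median 0.47). Of all genes, 10% had a positive and 10.7% a negative difference, and 8.13% fell in REH. Only 1 rose in RS4;11, where 8.68% of all genes rose, and 5 in SEM, while in REH 11 fell and none rose (median -0.49), or 8 without the REH DMSO arrays that stood apart, when 9 still had a positive difference. FAS† differed by 1.28 ± 0.26, with a fall in REH (-1.27) and uncalled changes of -0.27 in RS4;11 and 0.27 in SEM. SESN1† differed by 1.09 ± 0.12 and ZMAT3 by 0.85 ± 0.13. TNFRSF10B, a death receptor, differed by 0.83 ± 0.09 (0.55 with the mean of all probe sets), with a rise of 0.78 in SEM, an uncalled change of 0.16 in RS4;11 and a fall in REH (-0.36). CDKN1A† fell by 0.55 in RS4;11 and by 0.64 in REH on the log2 scale and rose by 0.46 in SEM. Of 19 chaperones and sensors of the endoplasmic reticulum, 9 had a positive and 2 a negative difference (8 and 2 without the REH DMSO arrays that stood apart), and in REH 11 fell and none rose, or 6 without those arrays. In SEM 7 of these 19 rose and 5 fell, and in RS4;11 1 rose and 4 fell. HSPA5, the chaperone BiP, changed by 0.00 in RS4;11, 0.56 in SEM and -0.73 in REH. Its difference was 1.01 ± 0.17, 0.59 without the REH DMSO arrays that stood apart and 0.65 with the mean of all probe sets.

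KIT, the stem cell factor receptor, was dim in RS4;11 and SEM. In REH it had signals of 7.47, 7.37 and 7.36 on combination arrays, against 5.78, 5.37 and 5.38 on DMSO arrays, and the groups were well apart. Its difference was -1.71 ± 0.17, and -1.84 without the REH DMSO arrays that stood apart. CCND2†, cyclin D2, had 11.13, 11.16 and 10.91 on REH combination arrays, against 8.80, 9.17 and 8.79 on DMSO arrays. It rose in SEM as well, by 1.36, and its change in RS4;11 was 0.37 and uncalled. The difference was -1.28 ± 0.20. MRC1, the mannose receptor, had 8.32, 8.36 and 8.47 on REH combination arrays, against 6.06, 6.30 and 6.67 on DMSO arrays. These 3 genes rose in REH with no overlap between its groups. KIT, MRC1, SULF2, PRF1, TRPC4 and CEL were named by a rule that required this lack of overlap, so it adds no further support. SULF2, a sulfatase of the cell surface, had 4.94, 4.67 and 5.11 on REH combination arrays, against 7.08, 6.72 and 7.37 on DMSO arrays, and its difference was 2.99 ± 0.21 (1.85 with the mean of all probe sets). PRF1, perforin, had 6.17, 6.00 and 6.26 on REH combination arrays, against 8.15, 7.85 and 7.44 on DMSO arrays. Both fell in REH, again without overlap. TRPC4†, a calcium channel, had 5.37, 5.50 and 5.39 on REH combination arrays, against 7.52, 7.10 and 7.08 on DMSO arrays, and was dim in both KMT2A-AFF1 lines. CEL†, a lipase, differed by 1.74 ± 0.39 with all arrays and was uncalled at 1.27 (adjusted p = 0.091 in limma) without the REH DMSO arrays that stood apart.

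**Figure D4:**
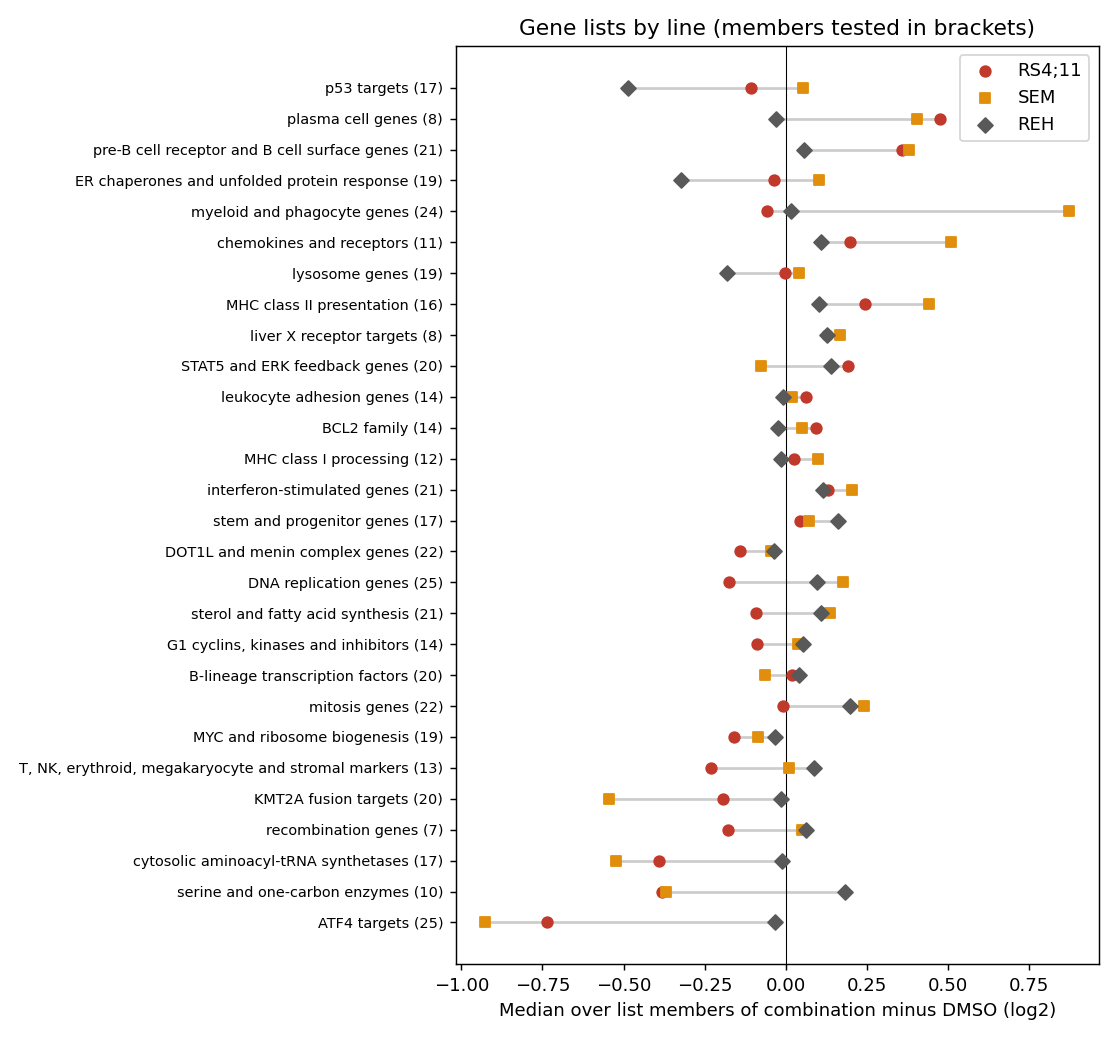
Median combination minus DMSO log2 change over the tested members of each gene list, in RS4;11, SEM and REH. ATF4 targets have medians of -0.74, -0.93 and -0.03, and p53 targets have their lowest median, -0.49, in REH.

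Of 22 mitosis genes, 10 rose in SEM, 9 in REH and 1 in RS4;11, where 13.1%, 8.28% and 8.68% of all genes rose in these lines, and only UBE2C was called between the KMT2A-AFF1 lines and REH, at -0.47 (-0.31 without REH DMSO replicate 1, and uncalled in a fit of the 15 arrays only). Without REH DMSO replicates 1 and 3, 3 mitosis genes were called lower. Of 25 DNA replication genes, 2 had a positive and 4 a negative difference (2 and 3 without those arrays). In RS4;11 2 of these 25 rose and 5 fell, and in SEM 6 rose and 1 fell, where 8.17% and 13.1% of all genes fell. The effect in RS4;11 minus that in SEM was negative for 8 and positive for 1 (median -0.38), where 6.3% and 6.57% of all genes were. Of 19 MYC and ribosome biogenesis genes, 5 had a negative difference (4 without those arrays), with MYC† at -0.83 ± 0.19. Of 8 liver X receptor targets, 2 had a positive difference (3 without those arrays), ABCA1†, the cholesterol exporter, at 2.67 ± 0.20 (1.47 with the mean of all probe sets) and ABCG1† at 0.84, which was uncalled in a fit of the 15 arrays only. Of 14 leukocyte adhesion genes, 6 were called higher and 1 lower, against 4 and 3 without the REH DMSO arrays that stood apart. Counts of 5 higher and 5 lower among 21 interferon-stimulated genes, and of 5 higher and 2 lower among 19 lysosome genes, compare with 2 and 2 and with 0 and 2 without the REH DMSO arrays that stood apart. Of 21 sterol and fatty acid synthesis genes, 1 was called each way, against 0 higher and 5 lower without those arrays. Of 14 G1 cyclins, kinases and inhibitors, 2 were called higher and 3 lower, of 14 members of the BCL2 family 3 higher, of 20 STAT5 and ERK feedback genes 3 higher and 5 lower, of 7 recombination genes 2 lower, and of 13 markers of T, NK, erythroid, megakaryocytic and stromal cells 2 higher and 1 lower. Of all genes, 10% were called higher and 10.7% lower with all arrays, and the small counts of this paragraph are to be read beside these shares. Without the REH DMSO arrays that stood apart, the counts were 1 and 2 for the STAT5 and ERK feedback genes, 2 higher for the BCL2 family, 1 lower for the recombination genes and the same for the G1 genes and the cell type markers.

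RS4;11 and SEM responded with partly different genes, and their effects share no arrays. The combination changed 1184 genes the same way in both lines, 616 up and 568 down, which is 47% of the genes called in RS4;11 and 30.3% of those called in SEM. It changed 148 genes in opposite ways, 103 of them up in RS4;11 and down in SEM. The difference between the lines was called for 1924 genes (12.9%). SPRY1, an inhibitor of receptor tyrosine kinase signalling, changed by 1.78 in RS4;11 and -2.33 in SEM, and LGR5, a stem cell receptor of the Wnt pathway, by 1.00 and -2.80. ABCG1†, a cholesterol exporter, changed by 4.18 in RS4;11 and 0.13 in SEM, where it was dim. RNASE2, a ribonuclease of granulocytes, had signals of 7.79 and 8.40 on SEM combination arrays, against 2.85 and 3.07 on DMSO arrays, and was dim in RS4;11. PRL, the hormone prolactin, had 13.06, 13.10 and 13.04 on RS4;11 combination arrays, against 13.12 and 13.10 on DMSO arrays, and 10.73 and 10.60 on SEM combination arrays, against 5.56 and 4.78 on DMSO arrays. All RS4;11 arrays of both groups lay between 13.04 and 13.12, and it rose in SEM, while REH DMSO replicate 1 read 8.97, against 4.06 and 4.28 on the other REH DMSO arrays.

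**Figure D5:**
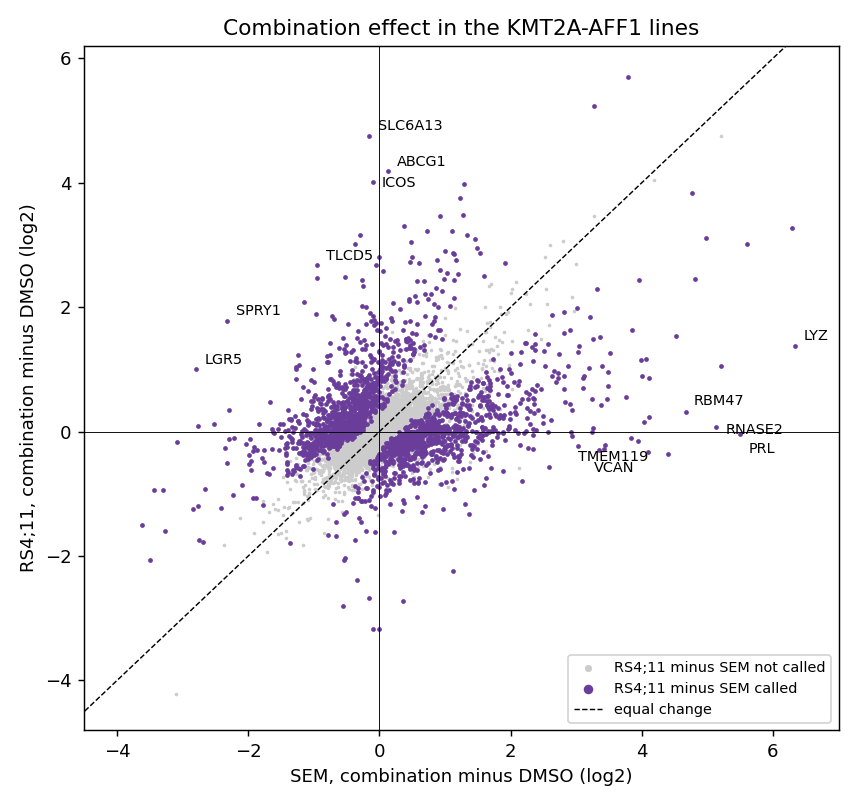
Combination minus DMSO log2 change per gene in RS4;11 against SEM for 14943 genes, with the 12 genes of the largest difference between the lines labelled. SLC6A13, ICOS, SPRY1, ABCG1, LGR5 and TLCD5 lie toward RS4;11, and PRL, RNASE2, LYZ, TMEM119, VCAN and RBM47 toward SEM.

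The same difference between lines was computed for each compound alone, which shares the DMSO arrays with the combination, so the values are given side by side only. EPZ004777 differed between the KMT2A-AFF1 lines and REH for 784 genes (5.25%) and MI-2-2 for 2036 genes (13.6%). MS4A1 differed by 5.05 for the combination, -0.03 for EPZ004777 and 3.42 for MI-2-2, and JCHAIN by 4.19, 2.02 and 3.77 in that order. Of the 25 ATF4 targets, 19 had a negative difference for the combination, none for EPZ004777 (2.76% of all genes) and 11 for MI-2-2 (5.72% of all genes).

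MOLM-13, a line of acute myeloid leukaemia that carries KMT2A-MLLT3, was treated for 4 days, with 3 µM of either compound by the labels. Its arrays had another distribution of values, so they were fitted apart, and the results stand beside the others with no test. The combination changed 6947 of 14209 genes there (48.9%), 3325 up (23.4%) and 3622 down (25.5%). Of 1325 genes with a positive difference in the lymphoid lines that were tested in MOLM-13, 42% rose and 20.9% fell, and of 1366 genes with a negative difference 21.4% rose and 40.5% fell. Of all genes tested in both fits, 23.5% rose and 26.2% fell. Of the 25 ATF4 targets 19 fell and 2 rose, and of the KMT2A fusion targets 15 of 18 fell, including MEIS1 at -4.29. Every call on 24 myeloid and phagocyte genes was a rise, in 22 of them (median 1.26).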

How the data were processed

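Total RNA was amplified by the Nugen Ovation method and hybridized to Affymetrix arrays, per the labels' protocols. The authors deposited log2 signals per probe set made by RMA with the affy package under R 3.0.2, per the submitters' processing notes, and these were used as deposited. RMA draws arrays to a common distribution, so values are relative within the set of arrays normalized together. The 12 MOLM-13 arrays had another distribution and were fitted apart, and the mouse arrays were not used here. Of 54675 probe sets, 41091 had exactly 1 gene symbol in the platform annotation, 1801 had several, 11721 had none and 62 were controls. Symbols of 41037 were matched by Entrez identifier. The probe set with the highest mean stood for a gene, and 14943 genes were tested, each above an array's percentile 40 on 2 or more of the arrays. Identifiers ending in _s_at or _x_at carry the mark †.

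All 32 RS4;11, SEM and REH arrays (12 groups, 20 residual degrees of freedom) were fitted together with limma 3.58.1 under R 4.3.3 (lmFit, eBayes), the contrasts being those given in the report. A gene counted as called where its adjusted p (Benjamini-Hochberg over all genes tested) was under 0.05, two-sided, with no threshold on the fold. The precision is limited by 2 or 3 arrays per group. Data were simulated for the main comparison over 14943 genes, with changes in a small part of them, equal in RS4;11 and SEM. Each gene had the same spread on every array, although the REH DMSO arrays spread more. On these data the fit recovered 35.8% of changes of 0.5 log2, 92.5% of changes of 1 log2 and 97% of changes of 2 log2. The 28 gene lists, their members and the choice of named genes were made with earlier results of these data known. Lists were described by counts and medians, with no test. Named genes were the 12 largest differences in each direction among genes whose arrays did not overlap in RS4;11 and SEM. Added to them were the 6 in each direction led by REH, whose arrays did not overlap in REH. The rest were the 6 in each direction between RS4;11 and SEM, called list members, and MEIS1, DOT1L and MEN1. The report prints a part of them. Lack of overlap in those lines was thus an entry condition for the first 2 sets. Replicate numbers did not pair the samples: deviations of equal numbers correlated between -0.43 and 0.45. Alternatives covered the filter, normalization, probe set choice, arrays fitted, covariates for 3' minus 5' signal, array weights, the replicate block and each array left out.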

Additional observations from a re-analysis of the deposited data

Results flagged for a closer look

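The combination effect differed between RS4;11 and SEM for 1924 genes by the limma test of that difference. The largest values (RS4;11 minus SEM, log2, all called) follow. Toward RS4;11 they were 4.91 for SLC6A13†, a GABA and taurine transporter, 4.12 for ICOS, a costimulatory receptor, 4.11 for SPRY1, 4.06 for ABCG1†, 3.8 for LGR5 and 3.62 for TLCD5. SLC6A13 had signals of 10.18, 10.07 and 9.84 on RS4;11 combination arrays, against 5.27 and 5.28 on DMSO arrays, and was dim in SEM. Toward SEM they were -5.54 for PRL, -5.06 for RNASE2, -4.95 for LYZ†, -4.76 for TMEM119, -4.42 for the matrix proteoglycan VCAN† and -4.36 for RBM47†. With the mean of all probe sets the values were 2.25 for LGR5, 2.41 for SPRY1, 2.24 for TLCD5 and -1.64 for RBM47. Dixon's test of a single outlying array was not run, since the groups held 2 or 3 arrays.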

How the results depend on the processing

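Of 133 named genes 130 were called, and 97 of these kept their call under each alternative that gave a value (24 for CCR2, 26 for CYP4F3 and 27 for the others), while 33 lost it under at least 1. CDKN1C, a cell cycle inhibitor at 0.63, reversed to -0.057 (adjusted p = 0.745) with the mean of all probe sets. For the difference between KMT2A-AFF1 lines and REH, 1990 genes were called (958 lower) with the 15 combination and DMSO arrays only, when RS4;11 minus REH gave 1357, SEM minus REH 1871, RS4;11 minus SEM 1257 and REH alone 1245; fewer arrays then estimate the spread. The actin covariate gave 1364 in REH. Array weights gave 1118 in REH, 3246 for RS4;11 minus SEM and 3958 in RS4;11. Without REH DMSO replicates 1 and 3, REH gave 820 and the main difference 957 higher. Leaving out REH combination replicate 2 as well, chosen after seeing the data, gave 1733 (822 higher, 911 lower), 1534 for RS4;11 minus REH and 582 in REH, while calls in RS4;11 numbered 3399. The spread is estimated over all groups together, so leaving out REH arrays also changes the calls in RS4;11. The cause of the changes in REH was not tested. Without 1 array at a time the ranges were 2409 to 3940 for the main difference (1190 to 2047 higher, 1219 to 2119 lower), 1526 to 3286 for RS4;11 minus REH, 1940 to 3532 for SEM minus REH, 1300 to 2414 for RS4;11 minus SEM, 1415 to 3074 in RS4;11, 2629 to 4510 in SEM, 1464 to 3716 in REH and 6200 to 6484 in MOLM-13. With the replicate block the main difference gave 2371 calls and RS4;11 minus SEM 1347, and 4 named genes lost their call. Differences under 1 log2 were recovered incompletely in simulation, so an uncalled gene is not shown to be unchanged.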
